A study of Macaca mulatta with 161 samples.

Results

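Inner cells of the middle blastocyst were compared with inner cells of the early blastocyst of the rhesus monkey (Macaca mulatta), across all genes with a mean of at least 1 FPKM over these cells. All 39 cells labelled middle blastocyst and all 44 labelled early blastocyst were taken, which is 83 of the 161 cells of the series. The other cells come from the late (52 cells) and hatching (26 cells) blastocyst and serve below only for levels. Each cell is 1 polyA RNA-sequencing library.

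The labels give no genotype or treatment that sets the groups apart: both came from embryos made by fertilising oocytes of hormone-stimulated females and grown in the same culture medium with serum. Early blastocysts had a small cavity and were taken at about embryonic day 5, and middle blastocysts had a larger cavity and were taken at about day 5.5. PKH26, a dye that binds cell membranes, marked the outer cells, and single cells that showed no dye were kept as inner cells, so that the position rests on its absence. No label ties a cell to an embryo or to a female. Each stage is therefore 1 sample, cells are not replicates, and no test or p-value is given: the values describe these cells.

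The blastocyst is the stage at which the embryo first holds a fluid-filled cavity. Its outer cells form the trophectoderm, an epithelium that pumps fluid inwards and later builds the placenta. Its inner cells form the inner cell mass, which separates into the epiblast, the source of the body, and the primitive endoderm, the source of the yolk sac lining. Over this time the embryo also shuts down transcripts of its first wave of gene activity, takes up more glucose and builds up its own respiration.

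Values are FPKM (fragments counted per kilobase of transcript and scaled to the mapped fragments), and levels are given as log2(FPKM + 1). A difference is the mean level over middle cells minus the mean over early cells, and it understates the change of weakly expressed genes. A gene counts as detected in a cell at an FPKM of at least 1, and intervals on shares of cells are exact 95% Clopper-Pearson intervals that cover counting error only. Where a gene was detected in 0 cells, the limit given is instead 3 cells of the total, which is lower than the exact bound. Recovered reads ranged from 6.35 to 30.1 M (mega) per early cell, with a median of 11.3 M, and from 3.87 to 25.8 M per middle cell, with a median of 13.1 M. A median of 7019.5 genes reached 1 FPKM in early and 7094 in middle cells, and 0 cells had identical values.

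The cells expressed pluripotency genes, and genes of the trophectoderm marker list as well. POU5F1, the central pluripotency factor, was detected in all 44 early and 39 middle cells, with a lowest level of 6.38, a median of 9.96 and a highest of 10.48 in early cells. In middle cells these were 9.47, 9.98 and 10.68. NANOG, the epiblast homeobox factor, was also detected in every cell, with medians of 7.51 in early and 7.61 in middle cells. DNMT3L, a partner of the DNA methyltransferases, had medians of 9.31 and 9.48. The differences of these 3 genes were 0.15, 0.31 and 0.15, each smaller than the SD between cells of either stage (0.28 to 0.99). KRT18, a keratin on the trophectoderm marker list, was high in the same cells, with medians of 9.99 and 10.64. Summed FPKM of the trophectoderm markers had medians of 3835 in early and 4349 in middle cells. For the epiblast markers these medians were 5728 and 4097. GATA4, an endoderm factor, stayed below the mean of 1 FPKM over these cells and has no difference here.

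The stages differed in many genes by moderate amounts. Of 16049 genes in the table, 9347 passed the mean filter, and their median difference was 0.08. At a difference of at least 1, 299 genes were higher in middle cells (3.2%) and 353 were lower at -1 or below (3.78%). With every cell rescaled to the same summed FPKM, these counts were 589 higher and 212 lower, because the median of all genes then moved by 0.14 to 0.22. Summed FPKM had a median of 645388 in early and 557358 in middle cells. Past 2 units, 7 genes were higher and 23 lower, and past 3 units 0 were higher and 6 lower. The highest and lowest cells of the stages overlapped in every gene that passed, so that genes whose ranges do not overlap numbered 0 (0%).

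Cells also differed within a stage, along the numbers in their titles. Early cells numbered 1 to 28 (25 cells) and 29 to 48 (19 cells), and middle cells numbered 3 to 29 (25 cells) and 32 to 55 (12 cells), were described apart. Another 2 middle cells are titled HSM, a term that the labels do not explain. These number ranges were chosen with earlier clusters of the same cells known, and the labels do not say what a number stands for. Depth differed too: median recovered reads were 9.04 M in early cells numbered 1 to 28 and 15.1 M in those numbered 29 to 48. In middle cells numbered 3 to 29 and 32 to 55 they were 12.8 M and 15.6 M. The part of depth in the range differences was not tested. Between the number ranges of the early stage 1081 genes differed by at least 1 in either direction, and between those of the middle stage 1233 did. Between a middle and an early range 1214 to 1412 genes did, and between the pooled stages, with more cells in each mean, 652. The difference was therefore also taken for each of the 4 pairs of a middle with an early range. In all 4 pairs 38 genes were at least 1 higher (0.407%) and 38 at least 1 lower (0.407%).

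Principal components of the 1000 most variable genes show the same layout. Component 1 held 5.82% of the variance, and 62.7% of its variance lay between the stages and 89.7% between the title ranges. Middle cells numbered 3 to 29 lay at a mean of -20.39 on it, those numbered 32 to 55 at 2.32, and the early ranges at 6.96 and 18.09. Component 2 held 4.64%, of which 8.86% lay between the stages and 76.1% between the title ranges, and its Spearman correlation with recovered reads was -0.71 over 83 cells. By their mean, middle cells numbered 32 to 55 thus lay between the other middle cells and the early cells on component 1. They were not a separate group on it. Single cells of this range ran from -7.69 to 13.02, and most lay within the span of the early cells, -0.52 to 23.78. The part of depth in component 2 was not tested.

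**Figure D1:**
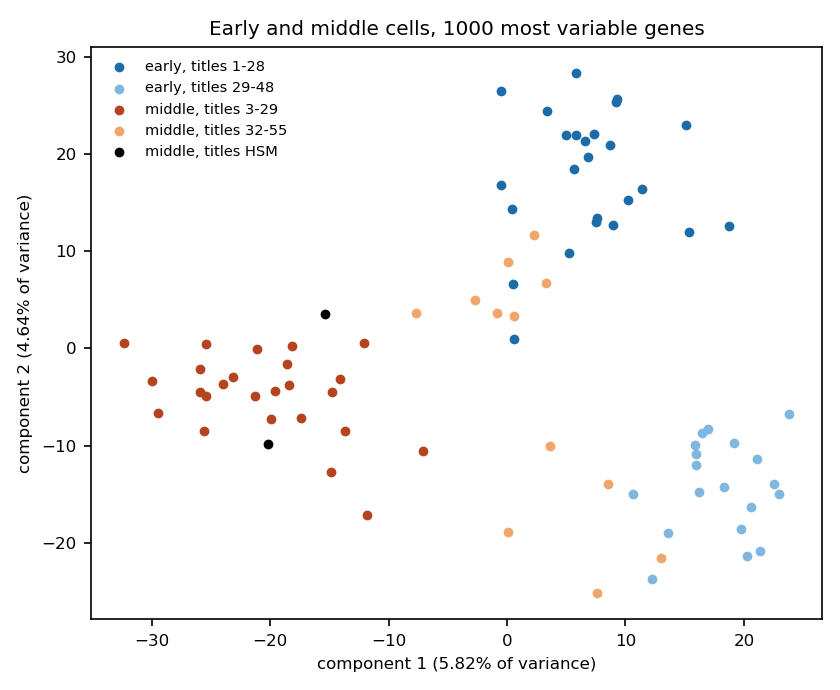
Position of each early and middle cell on component 1 (5.82% of the variance) and component 2 (4.64%), in units of the centred log2(FPKM + 1) values, coloured by stage and title number. Middle cells numbered 3 to 29 lie at the left at a mean of -20.39, and the 2 early ranges lie at the right at different heights. The mean of middle cells numbered 32 to 55 lies between them on component 1, but most of these cells fall within the span of the early cells.

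The genes that were highest in middle relative to early cells code for a small-RNA cofactor, metabolic enzymes and a growth factor-responsive transcription factor. FKBP6, a chaperone cofactor of the piRNA pathway that silences transposons in germ cells, had the largest difference. It ranged from 0.00 to 7.30 in early cells with a median of 0.47, and from 0.00 to 8.65 in middle cells with a median of 5.48. It was detected in 19 of 44 early cells (43.2%, 28.3% to 58.97%) and 32 of 39 middle cells (82.1%, 66.5% to 92.5%), and its difference was 2.92 (SD 2.20 in early and 2.66 in middle cells). Both stages held cells without FKBP6, and the groups overlapped over nearly their whole range. The difference was 2.57 to 3.23 over the 4 pairs of ranges, and FKBP6 had means of 1.00 in late and 0.03 in hatching cells, so that the middle stage held its highest mean.

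UCP2, a carrier of the inner mitochondrial membrane, had a median of 0.92 in early cells (0.00 to 5.99) and 5.58 in middle cells (0.05 to 7.44). Its difference was 2.36 (SD 2.24 and 2.27), and 1.00 to 3.27 over the 4 pairs of ranges. MYC, the transcription factor that drives growth and biosynthesis, had a median of 2.51 in early cells (0.00 to 9.28) and 5.55 in middle cells (0.16 to 7.62). The difference of MYC was 2.28 (SD 2.52 and 2.44). It was largest for middle cells numbered 3 to 29, whose mean of 5.47 stood against 3.37 in those numbered 32 to 55 and 2.93 and 2.13 in the early ranges. The 4 pairs of ranges gave MYC 0.44 to 3.34, so its size depended on which middle cells were taken, and late and hatching cells had means of 4.40 and 4.92.

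Enzymes of serine, lipid and inositol metabolism were among the same leading genes. PSAT1, an enzyme of serine synthesis, had medians of 1.43 in early (0.00 to 6.99) and 4.69 in middle cells (0.00 to 7.94), a difference of 2.19. ACOX2, a peroxisomal oxidase of branched fatty acids and bile acid precursors, had medians of 4.45 (0.00 to 7.31) and 6.30 (0.62 to 7.68), a difference of 2.03. ELOVL5, which lengthens unsaturated fatty acids, differed by 1.84, and ISYNA1, the first enzyme of inositol synthesis, by 1.81. ACOX2 was higher in all 4 pairs of ranges (1.57 to 2.31), whereas ISYNA1 ranged from -0.01 to 2.99. NME4, a mitochondrial nucleoside diphosphate kinase, differed by 2.21 and by 0.73 to 3.14 over the pairs. The rest of the 15 highest genes were TYROBP, PREP, PI16, STBD1, TOMM34, PIGO and PIWIL2, at 1.77 to 2.31. Of the 15, 6 were at least 1 higher in all 4 pairs.

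The genes that were lowest in middle cells include a NODAL co-receptor, mitochondrial proteins, an immediate early factor and histones. TMEM119, a membrane protein best known from bone-forming cells and microglia, had the largest difference in this direction. Its early cells ranged from 0.48 to 9.70 with a median of 5.59, and its middle cells from 0.00 to 6.26 with a median of 0.10. It was detected in 43 of 44 early cells (97.7%, 88.0% to 99.9%) and 11 of 39 middle cells (28.2%, 15.001% to 44.9%), and its difference was -4.48 (SD 1.92 and 1.80). The gap held in all 4 pairs of ranges (-5.90 to -2.30), although middle cells numbered 32 to 55 had a mean of 2.27 against 0.50 in those numbered 3 to 29. Late and hatching cells had means of 0.74 and 1.37.

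CFC1 codes for Cryptic, a co-receptor through which NODAL signals. Early cells had a median of 5.53 (0.00 to 7.99) and middle cells 0.22 (0.00 to 7.77), and CFC1 was detected in 39 of 44 and 9 of 39 cells. Its difference was -3.62 (SD 2.40 and 2.26). Middle cells numbered 3 to 29 had a mean of 0.23 and those numbered 32 to 55 a mean of 3.69, against 4.79 and 5.07 in the early ranges. Low CFC1 was thus found mainly in 1 of the middle ranges, and hatching cells had a mean of 6.06.

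COX7B2, a testis form of a cytochrome c oxidase subunit, had a median of 6.03 in early cells (0.21 to 8.08) and 3.02 in middle cells (0.00 to 6.19). The difference of COX7B2 was -3.55, and -3.91 to -2.46 over the 4 pairs. TST, a mitochondrial sulfurtransferase that detoxifies cyanide and handles sulfide, had medians of 5.61 (0.00 to 7.19) and 0.23 (0.00 to 6.39), a difference of -3.12, and -3.94 to -1.75 over the pairs. FOS, an immediate early transcription factor, had medians of 4.77 (0.00 to 9.46) and 0.22 (0.00 to 6.69), a difference of -2.79, and -4.79 to -1.32 over the pairs. GAL, the neuropeptide galanin, differed by -2.66, with medians of 6.10 and 3.56. In these 4 genes middle cells of both ranges lay lower than early cells of both ranges on average, while single cells overlapped.

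NDUFA1, a small subunit of respiratory complex I, was high in all early cells (6.88 to 10.84, median 9.61) and ranged from 0.98 to 8.44 in middle cells (median 7.07). The difference of NDUFA1 was -3.79, and -5.53 to -0.80 over the pairs of ranges. TMSB4X, the actin-binding thymosin, had medians of 10.49 (6.43 to 11.68) and 8.24 (3.69 to 11.54), a difference of -2.53. SAT1, which acetylates polyamines for breakdown, had medians of 9.43 (5.25 to 11.66) and 7.30 (1.85 to 10.51), a difference of -2.35. Means of SAT1 were 6.02 in middle cells numbered 3 to 29 and 8.83 in those numbered 32 to 55, and the pairs gave -3.48 to -0.33. The other genes among the 15 lowest were TSPAN7, HIST1H2BK, LIM2, HIST1H2BJ, FTHL17 and MOGAT2, at -3.08 to -2.44. Of the 15, 9 were at least 1 lower in all 4 pairs, while HIST1H2BJ ran from -4.74 to 0.37. Reads of histone, ferritin and thymosin genes and of CFC1 may be split among near-identical copies, which makes their levels uncertain.

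**Figure D2:**
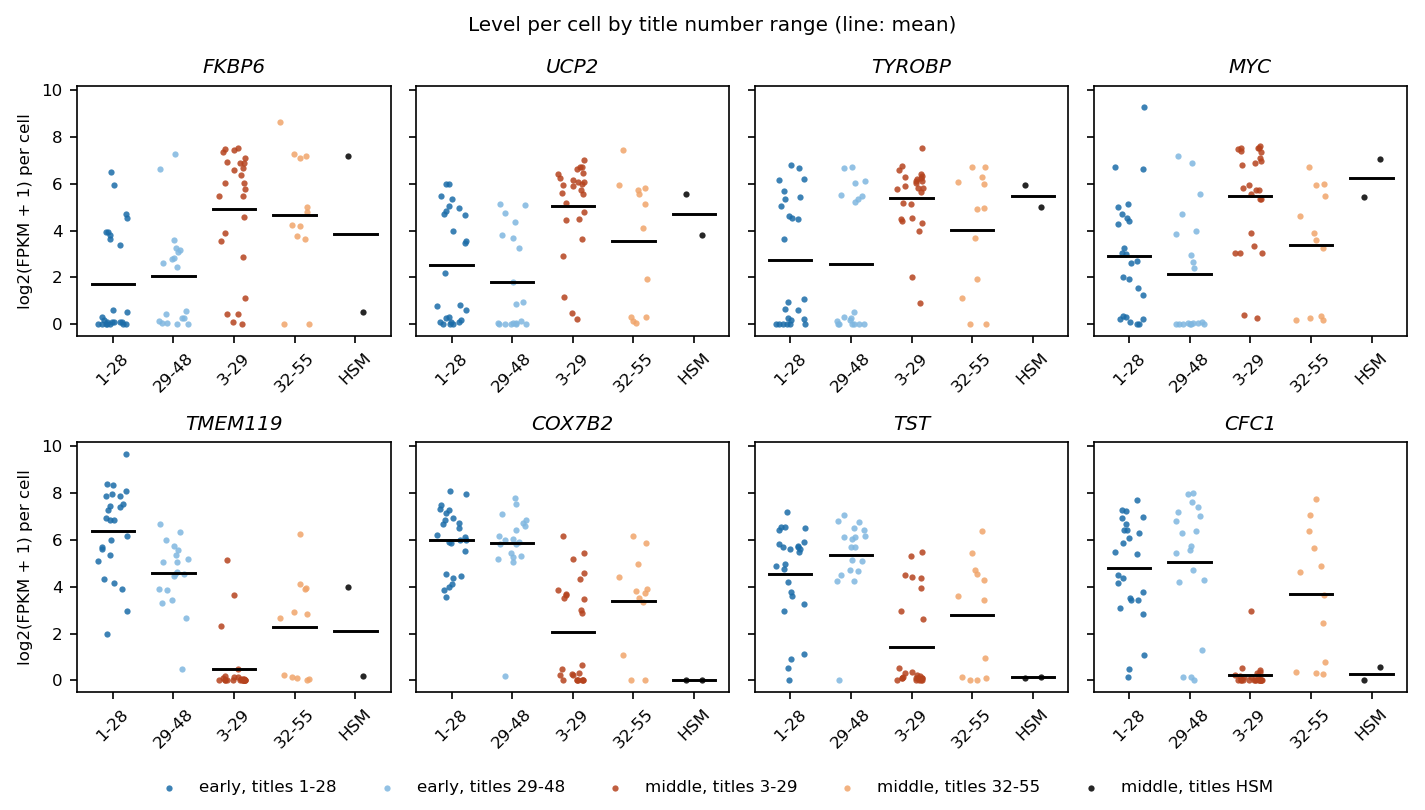
Level in log2(FPKM + 1) of 4 genes that were higher (FKBP6, UCP2, TYROBP, MYC) and 4 that were lower (TMEM119, COX7B2, TST, CFC1) in middle cells. Each point is 1 cell, columns are title number ranges and the line is the mean: FKBP6 is high in both middle ranges, while CFC1 is near 0 in middle cells numbered 3 to 29 (mean 0.23) and not in those numbered 32 to 55 (mean 3.69).

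Correlations with leading genes are given over both stages and within each. The leading genes were picked for a large stage difference and their partners for the highest correlation over all 83 cells. Values were lower within a stage, which this choice favours. Over the 83 cells, the genes most like FKBP6 by Spearman's rho were BCS1L (0.53), TAF1 (0.53) and CDK5RAP3 (0.51), with 0.39, 0.46 and 0.28 within the 44 early cells and 0.20, 0.40 and 0.496 within the 39 middle cells. The genes most like MYC were IGF2BP1 (0.59), ACTG1 (0.50) and C17orf70 (0.49), with 0.35, 0.26 and 0.18 within early and 0.48, 0.22 and 0.39 within middle cells. TMEM119 was most like RPS4X (0.76), COX7B (0.75) and SSR4 (0.73), with 0.26, 0.38 and 0.45 within early and 0.44, 0.27 and 0.34 within middle cells, and all 3 of these genes are X-linked. These points share stage and title range, and depth differs among them.

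Genes of the X chromosome were low in middle cells as a group. By symbol, 8699 of the 9347 genes (93.1%) could be placed on a chromosome of the RefSeq assembly T2T-MMU8v2.0. The 309 X-linked genes had a median difference of -0.42, and 252 of them were lower, while the medians of the 20 autosomes lay between 0.01 and 0.18. At -1 or below stood 50 X-linked genes, which is 16.2% of them against 3.78% of all genes, and at 1 or above stood 0. Of the 15 lowest genes 5 were X-linked (NDUFA1, TSPAN7, FTHL17, TMSB4X and SAT1), and of the 15 highest 0.

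The low X-linked level sat in the middle cells numbered 3 to 29 and in the 2 titled HSM. X-linked genes made up a median of 4.22% of the summed FPKM in early cells numbered 1 to 28 (2.35% to 4.85%) and 3.99% in those numbered 29 to 48 (3.66% to 4.55%). Middle cells numbered 3 to 29 had 2.14% (1.47% to 2.43%), and those numbered 32 to 55 had 4.25% (3.49% to 4.63%). The 2 cells titled HSM had 2.17% and 2.22%, and 1 early cell with 2.35% stood apart from the other early cells, which were at 3.66% or above. The numbered middle ranges did not overlap in this share. The median of X-linked genes was -0.56 and -0.68 with middle cells numbered 3 to 29 against the early ranges, and 0.02 and -0.10 with those numbered 32 to 55. The labels give no sex for an embryo, and what sets the ranges apart was not tested. Without X-linked genes, 303 genes remained at -1 or below.

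**Figure D3:**
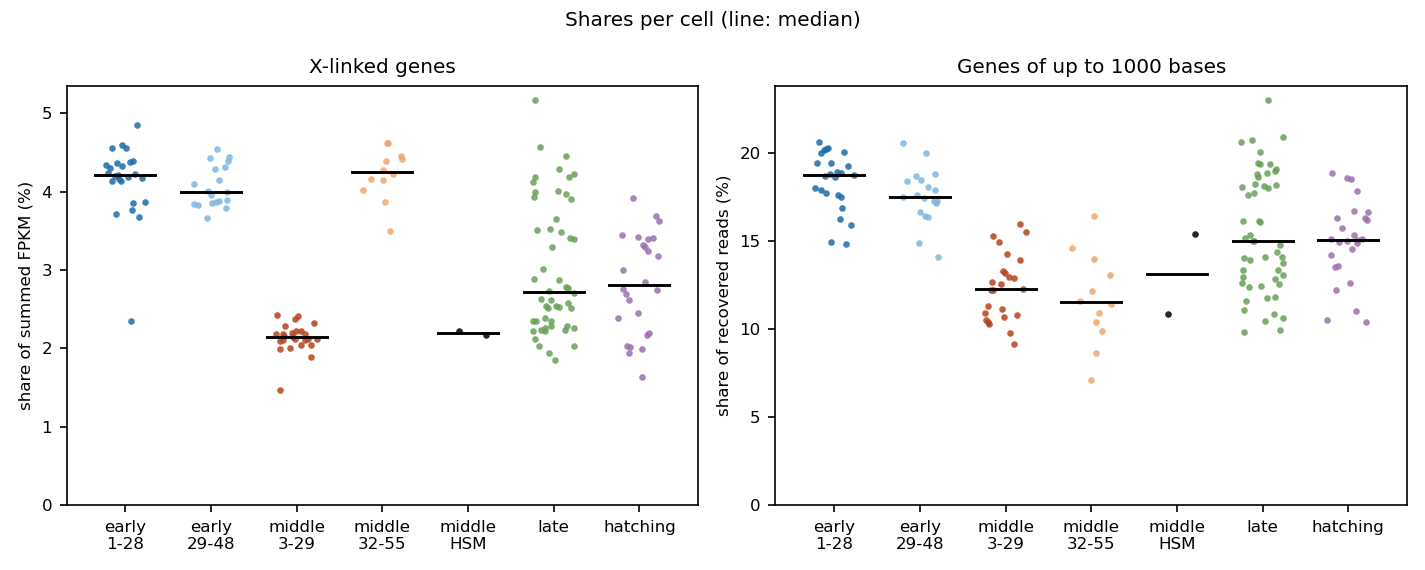
Share of summed FPKM from X-linked genes (left) and share of recovered reads from genes of up to 1000 bases (right), in percent, with 1 point per cell and the median as a line. The X-linked share is low in middle cells numbered 3 to 29 (median 2.14%) and high in those numbered 32 to 55 (4.25%), whereas the share of short genes is lower in both middle ranges than in both early ranges.

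Short genes were lower in middle cells whichever range was taken. Gene model lengths were recovered from the FPKM steps. With the genes ordered by length and cut into 10 bins of equal size, the median difference was -0.38 in the bin of shortest genes (154 to 1050 bases) and 0.21 in that of the longest. Over 9347 genes the Spearman correlation of length with the difference was 0.29 between the stages, 0.17 to 0.26 over the 4 pairs of ranges, and -0.05 between the ranges within either stage. Genes of up to 1000 bases took a median of 18.0% of the reads in early cells (14.1% to 20.6%) and 12.2% in middle cells (7.12% to 16.4%), and late and hatching cells had medians of 15.03% and 15.1%. Of the 15 lowest genes 8 were this short, and of the 15 highest 1. What underlies this trend was not tested. For each gene the median of genes of like length was therefore also subtracted, after which 222 genes were at least 1 higher (2.38%) and 326 at -1 or below (3.49%).

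**Figure D4:**
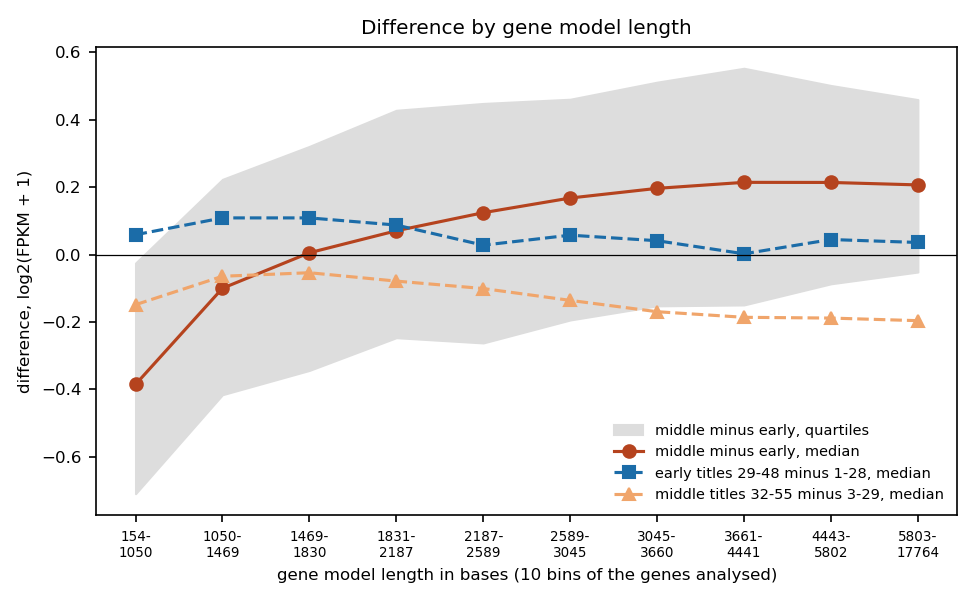
Median difference in log2(FPKM + 1) for 10 bins of the 9347 genes ordered by gene model length in bases, with quartiles of the middle minus early difference shaded. The median runs from -0.38 in the shortest to 0.21 in the longest bin between stages, while the dashed lines, which compare title ranges within a stage, do not rise with length.

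Gene lists were read against these backgrounds. A list is described by its members that passed the mean filter, its median, and the members past 1 or -1, beside 3.2% higher and 3.78% lower over all genes and an all-gene median of 0.08. Over all genes 5266 (56.3%) had a positive and 4081 a negative difference, and with every cell rescaled to the same sum 6170 (66.01%) and 3177.

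Genes of embryonic genome activation were lower in the pooled middle cells. All 11 members had a negative difference, with a median of -0.46 (-0.56 after subtracting genes of like length) and 2 of 11 at -1 or below. DPRX, a homeobox gene of this first wave, was detected in every cell, with a median of 10.01 in early cells (4.48 to 11.06) and 8.91 in middle cells (4.0002 to 10.56). DPRX differed by -1.12, its difference lay between -1.42 and -0.89 over the 4 pairs of ranges, and its mean was 5.78 in late and 4.06 in hatching cells. ARGFX, a related homeobox gene that the naive and epiblast lists also hold, differed by -1.05, from a median of 3.45 to 2.14, and was nearly absent at a mean of 0.01 in hatching cells. PRAMEF12 was detected in 10 of 44 early cells and 0 of 39 middle cells, which allows a share of up to 7.69%. Its highest early level was 12.95, in a single cell. PRAMEF12 passed the mean filter only through early cells, so the filter favoured its negative difference. With every cell rescaled to the same sum, 10 of the 11 were lower, the median was -0.45 and 0 of 11 were at -1 or below (DPRX -0.92 and ARGFX -0.91). The list median was -0.62 to -0.13 over the 4 pairs of ranges, 0 with medians over cells and -0.17 with a pseudocount of 10.

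Markers of the epiblast were also mostly lower, although NANOG was not among them. Of 11 markers 9 had a negative difference, with a median of -0.63 and 3 of 11 at -1 or below. UTF1, a chromatin factor of pluripotent cells, had medians of 3.31 in early (0.00 to 5.52) and 1.76 in middle cells (0.00 to 4.58), a difference of -1.25. Its early ranges had means of 3.90 and 1.73, and the pairs gave UTF1 -2.80 to 0.24. GDF3, a ligand of the NODAL family, had medians of 4.23 (0.00 to 7.08) and 2.56 (0.00 to 6.97), a difference of -1.24 with -1.98 to 0.11 over the pairs, and a mean of 6.97 in hatching cells. SOX2, a partner of POU5F1, differed by -0.63 with SD of 1.80 and 1.37, and FGF4, an epiblast ligand, by 0.42. The list median depended on the ranges and ran from -0.54 to 0.04 over the 4 pairs, all above its value with the cells pooled.

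Naive and primed pluripotency genes stood near all genes as lists, and their largest members went both ways. The 15 naive genes had a median of -0.17 (1 past 1 and 2 past -1), and the 11 primed genes 0.18 (2 and 1). With every cell rescaled to the same sum these medians were 0.04 and 0.37, against 0.22 over all genes. KLF5, a naive factor also used by trophectoderm, differed by -1.41, from a median of 4.75 (0.26 to 9.05) to 3.54 (0.05 to 5.81). Means of KLF5 were 5.33 and 3.65 in the early and 3.68 and 1.93 in the middle ranges, and the pairs gave -3.40 to 0.03. ZFP42, a naive zinc-finger marker, differed by 1.18. LIN28B, a block on let-7 processing listed as primed, differed by 1.49, from a median of 2.52 (0.00 to 5.07) to 3.83 (0.02 to 5.98), and by 0.44 to 2.08 over the pairs. CD24, a surface marker of the primed state, differed by -1.53, but its early ranges had means of 2.84 and 6.57. KLF4, a naive factor detected in every cell, differed by -0.08 (SD 0.53 and 0.87).

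Lineage markers of the neighbouring tissues stood near all genes as lists. The 17 trophectoderm markers had a median of -0.03 (2 past 1 and 2 past -1), and the 10 primitive endoderm markers -0.06 (0 and 0), which became 0.09 and 0.14 with every cell rescaled to the same sum. Their largest members were DLX3, a trophectoderm homeobox factor, at -1.22 and a median of 5.20 in early against 3.86 in middle cells, and KRT7, a keratin, at 1.19. With only middle cells numbered 32 to 55, KRT7 differed by -0.24. HAND1, a trophoblast factor, differed by -1.09 and GATA2, another, by 1.03. CDX2 was detected in 43 of 44 early and 37 of 39 middle cells, with a difference of -0.73 and -2.12 to 0.21 over the pairs. Among endoderm markers, APOE, an apolipoprotein, differed by 0.74 and HNF4A, a nuclear receptor, by -0.57.

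Genes of epithelial junctions had a median of 0.26, which depended on the middle cells taken. Of 20 members 16 had a positive difference, but 0 passed 1. Against the early ranges the list median was 0.28 and 0.42 with middle cells numbered 3 to 29, and -0.11 and 0.00 with those numbered 32 to 55. CDH1, the epithelial cadherin, had medians of 7.91 in early (2.51 to 8.54) and 8.31 in middle cells (7.89 to 9.31), a difference of 0.57 that lay between 0.50 and 0.68 over the pairs. CLDN7, a claudin, differed by 0.90 in the pooled cells and by -1.57 to 3.12 over the pairs. The 6 keratins had a median of 0.45, while their median between the middle ranges was -1.68, the higher-numbered cells being lower.

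Genes of the NODAL pathway were mostly lower in the pooled cells, and GDF3 and TDGF1 were so only against some of the cells. NODAL is a ligand of the TGF-beta family that acts through activin receptors, the co-receptors CFC1 and TDGF1, and SMAD proteins, and it is restrained by its own targets LEFTY1 and LEFTY2. Of 14 members 10 had a negative difference, with a median of -0.34, 0 past 1 and 3 past -1. Beside CFC1 these were GDF3 and SMAD3, the latter with medians of 3.55 (0.00 to 7.49) in early and 1.46 (0.00 to 5.98) in middle cells, a difference of -1.20. TDGF1 differed by -0.82, with -1.67 to 0.10 over the pairs. CFC1 was the 1 gene of the 14 that was at least 1 lower in all 4 pairs. NODAL itself was detected in 10 of 44 early and 6 of 39 middle cells, LEFTY1 in 7 and 4 and LEFTY2 in 4 and 2. At these low levels their differences were -0.33, -0.46 and -0.35, beside an SD between cells of 0.70 to 2.15. That SD describes the spread of cells and not the uncertainty of a difference. The list had medians of -0.38 and -0.29 against early cells numbered 1 to 28, and -0.02 and 0.04 against those numbered 29 to 48. With medians over cells its median was -0.0024.

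Receptors and other members of further signalling pathways were higher or lower one by one. IL6R, the interleukin-6 receptor chain, had medians of 5.05 (0.24 to 6.93) and 6.22 (2.41 to 8.03), a difference of 1.21 with 0.85 to 1.56 over the pairs. SOCS2, a feedback inhibitor of JAK-STAT signalling, differed by 1.33, and TYK2, a Janus kinase, by 1.00. SOCS1, another inhibitor, differed by -0.95, but by -0.05 with medians over cells and by -3.65 to 0.33 over the alternatives. The 15 LIF and JAK-STAT genes had a median of 0.27, with 3 past 1 and 0 past -1. ACVR1, a type I BMP receptor, was detected in 3 of 44 early cells (6.82%, 1.43% to 18.7%) and 19 of 39 middle cells (48.7%, 32.4% to 65.2%). Its difference was 1.13 and 0.81 to 1.23 over the pairs, although its highest middle level was only 3.92. With ACVR1 detected in so few early cells, the mean filter may have favoured its positive difference. BAMBI, a decoy receptor that damps BMP and activin signals, differed by -1.32. FGFR2, an FGF receptor, differed by -0.90. DUSP6, an ERK phosphatase and feedback target, differed by 1.16, but by -0.44 with only middle cells numbered 32 to 55. STK4, the MST1 kinase of the Hippo cascade, had medians of 1.31 (0.00 to 4.07) and 3.09 (0.00 to 4.39), a difference of 1.46.

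The glycolysis list had a median above that of all genes, with 3 members past 1. Of 22 members 15 had a positive difference, against 56.3% of all genes, and the median was 0.35, with 0 past -1. With every cell rescaled to the same sum 16 of 22 were higher, against 66.01% of all genes. The rescaled median was 0.56, against 0.22 over all genes. The 4 pairs of ranges gave medians of 0.25 to 0.51, and the early ranges themselves differed by 0.38. PFKL, the liver form of phosphofructokinase, separated most cells of the stages. It ranged from 4.51 to 7.96 in early cells (median 7.02) and from 7.17 to 8.87 in middle cells (median 7.92), a difference of 1.08 (SD 0.71 and 0.45). The middle cell was higher in 93.8% of middle-early cell pairs, and the 4 pairs of ranges gave 0.77 to 1.31. TPI1, triosephosphate isomerase, differed by 1.17 and 0.42 to 1.51 over the pairs. SLC2A1, the glucose transporter GLUT1, differed by 1.11, but its mean in middle cells numbered 32 to 55 was 5.31, below both early ranges. PDK1, which holds pyruvate back from the mitochondrion, was lower at -0.98, with medians of 5.22 and 4.37.

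Nucleotide synthesis had a list median of -0.06 (0.15 with every cell rescaled to the same sum), while CAD, PFAS and NME4 passed 1. CAD, which starts pyrimidine synthesis, had medians of 4.01 (0.41 to 5.10) and 5.18 (3.99 to 6.82), a difference of 1.18 and 0.84 to 1.35 over the pairs. PFAS, an enzyme of purine synthesis, differed by 1.17 with 0.93 to 1.31 over the pairs, and GART, another, by 0.70. With NME4, 3 of the 24 members passed 1 and 0 passed -1. MCM3, a subunit of the replicative helicase, was the largest of the 20 replication genes, with medians of 7.55 and 8.33 and a difference of 0.98, and TTK, a kinase of the spindle checkpoint, differed by 1.11. The medians of the replication and mitosis lists were both 0.03, close to that of all genes.

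Cholesterol synthesis was higher against only 1 of the early ranges. Of 23 genes 17 had a positive difference, with a median of 0.57, 4 past 1 and 1 past -1. The median was 0.95 and 1.03 against early cells numbered 1 to 28, and -0.04 and -0.18 against those numbered 29 to 48, and the early ranges themselves differed by 1.05. SQLE, squalene epoxidase, was higher against both early ranges, with medians of 3.17 (0.00 to 5.43) and 4.82 (0.16 to 6.55), a difference of 1.35 and 1.17 to 1.49 over the pairs. PMVK, phosphomevalonate kinase, differed by -1.33.

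Respiratory chain and ribosomal protein genes were lower, and they are short genes. Of 35 genes of complex I 31 had a negative difference (median -0.53, 6 past -1), of 40 of complexes II to V 32 (median -0.54, 3 past -1), and of 76 cytosolic ribosomal proteins 73 (median -0.60, 3 past -1). Their median lengths were 713, 903.5 and 690 bases against 2589 over all genes. After subtracting genes of like length the medians were -0.16, -0.18 and -0.17. NDUFB2, an autosomal subunit of complex I, was high in every cell, with medians of 10.61 (9.58 to 11.19) and 9.502 (7.33 to 10.50). Its difference was -1.16, or -0.67 against genes of like length. COX5B, a cytochrome c oxidase subunit, had medians of 10.84 (9.67 to 11.53) and 8.23 (7.08 to 10.96) and stood out, with a difference of -2.04 and -1.56 against genes of like length. Its middle ranges had means of 8.27 and 10.04. RPS29, a small-subunit ribosomal protein, had medians of 11.002 and 9.99 and a difference of -1.11, or -0.63 against genes of like length. With every cell rescaled to the same sum, the 3 medians were -0.36, -0.33 and -0.40, with 28 of 35, 28 of 40 and 67 of 76 genes lower and 2, 3 and 0 at -1 or below. Ribosomal protein reads may be split with processed pseudogenes.

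**Figure D5:**
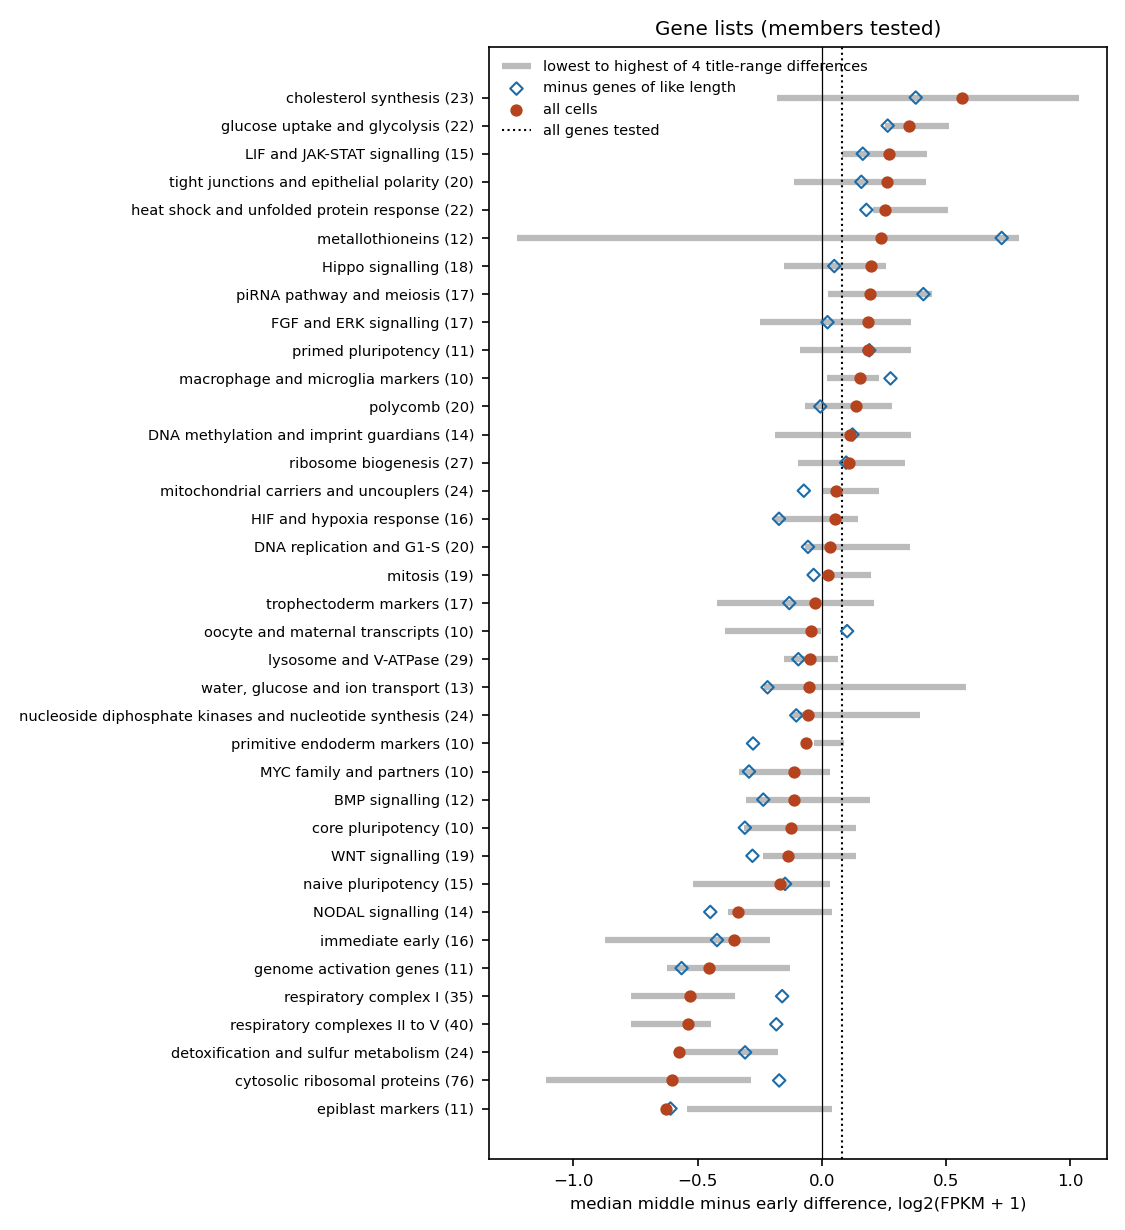
Median middle minus early difference in log2(FPKM + 1) of gene lists with at least 10 members (number of members in brackets): filled points for all cells, open diamonds after subtracting genes of like length, grey bars from the lowest to the highest of the 4 pairs of title ranges, and a dotted line for all genes (0.08). Ribosomal and respiratory genes move towards 0 when length is taken into account (-0.60 to -0.17 for ribosomal proteins), while genome activation genes do not (-0.46 to -0.56).

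Detoxification genes were mostly lower, while the direction of the metallothionein list depended on the cells taken. Of 24 genes of detoxification and sulfur metabolism 17 had a negative difference, with a median of -0.58 (-0.31 against genes of like length), 7 past -1 and 1 past 1. With every cell rescaled to the same sum 3 were past -1. Next to TST, MPST, the sulfurtransferase beside it in sulfide handling, had medians of 5.47 (0.00 to 7.83) and 3.60 (0.00 to 6.36), a difference of -1.82. GCLM, the regulatory subunit of glutathione synthesis, differed by -1.13, and CBS, which passes homocysteine into cysteine synthesis, by 1.68. The early ranges of CBS had means of 1.74 and 4.11. MT2A, a metal-binding metallothionein, was among the most abundant transcripts, with medians of 12.30 (9.30 to 13.49) in early and 10.35 (5.52 to 13.23) in middle cells, and differed by -1.98 with -2.85 to -1.42 over the pairs. Of the 12 genes on the metallothionein list, which includes the transcription factor MTF1, 9 had a positive difference. The list median was 0.24 (0.72 against genes of like length), with 2 past 1 and 2 past -1. Over the 4 pairs of ranges this median ran from -1.23 to 0.79. Between early cells numbered 29 to 48 and those numbered 1 to 28 it was -0.96. Near-identical metallothionein copies make single values uncertain.

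Immediate early genes, which cells switch on within minutes of a stimulus, were lower in 13 of 16 members, with a median of -0.35, 0 past 1 and 4 past -1. After FOS, JUNB, its partner in AP-1, had medians of 4.15 (0.00 to 6.27) and 2.54 (0.00 to 4.77), a difference of -1.64 and -2.12 to -0.93 over the pairs. EGR1, a zinc-finger factor of the same response, differed by -1.22 and BTG2, an antiproliferative factor, by -1.03.

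The list of heat shock and unfolded protein response genes was higher in a few members. The 22 genes had a median of 0.25 with 3 past 1 and 0 past -1. ASNS, asparagine synthetase, had medians of 3.38 (0.00 to 6.82) and 5.25 (0.42 to 7.85), a difference of 1.58. CHAC1, which degrades glutathione, was detected in 6 of 44 early and 14 of 39 middle cells and differed by 1.10. HERPUD1, of endoplasmic reticulum protein degradation, differed by 1.12 and by -0.12 to 2.35 over the pairs.

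In the V-ATPase, which acidifies lysosomes, subunits went in opposite directions. ATP6V1A, the catalytic subunit, had medians of 3.97 (0.23 to 5.99) and 5.11 (3.12 to 6.24), a difference of 1.28 with 0.31 to 1.86 over the pairs. ATP6V0D2, a tissue-restricted membrane subunit, had medians of 7.11 (1.10 to 8.79) and 6.01 (2.26 to 8.16), a difference of -1.25. It went on to means of 2.21 in late and 0.69 in hatching cells.

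Germline genes as a list were split in direction, while FKBP6, PIWIL2 and GPAT2 were detected in more middle than early cells. Of 17 genes of the piRNA pathway and meiosis 9 had a positive difference (median 0.19, 3 past 1, 0 past -1), and M1AP, a meiosis gene, was the lowest at -0.82. PIWIL2, an Argonaute protein that carries piRNAs, was detected in 11 of 44 early and 23 of 39 middle cells. Its difference was 1.77, but middle cells numbered 32 to 55 had a mean of 0.80 against 0.55 and 0.99 in the early ranges. GPAT2, a mitochondrial outer membrane protein needed for piRNA production, was detected in 0 of 44 early cells, which allows a share of up to 6.82%. It was found in 12 of 39 middle cells (30.8%, 17.02% to 47.6%), at up to 5.88. GPAT2 passed the mean filter only through middle cells, so the filter favoured its positive difference. Of 10 oocyte and maternal transcripts 6 had a negative difference, with a median of -0.04, among them SOHLH2 at -0.53 and KHDC3L at -0.52. The oocyte-expressed NLRP2 and NLRP7, which belong to maternal complexes of the early embryo, were abundant in every cell. NLRP7 had medians of 11.10 (5.496 to 11.74) and 11.51 (10.63 to 12.44), a difference of 0.61, and NLRP2 differed by 0.69.

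Markers of cell types foreign to the inner cell mass were looked up beside TMEM119 and TYROBP, which are also macrophage genes. TYROBP, an adaptor of immune receptors, had a median of 0.79 in early (0.00 to 6.79) and 5.83 in middle cells (0.00 to 7.54), was detected in 21 of 44 and 36 of 39 cells and differed by 2.31. CSF1R, the macrophage growth factor receptor, was detected in 2 of 44 and 13 of 39 cells, and the mean filter may have favoured this direction. Of 22 macrophage and microglia markers with a value, 10 passed the filter, 1 past 1 and 1 past -1, with a median of 0.15. Of the same 22 markers, TREM2, CX3CR1, C1QA and C1QC were at 0 in all 83 cells, which allows a share of up to 3.61% of cells. The summed FPKM of the markers was 67.2 to 880.9 in early cells (median 306.6) and 68.3 to 520.6 in middle cells (median 256.2). Of 14 cumulus and granulosa markers only GJA1, a gap junction protein, passed the filter, at a difference of 0.28, and 8 were at 0 in all 83 cells. Of 9 blood markers only HBZ, an embryonic globin, passed, at 1.09, and the adult globins HBA1, HBA2 and HBB were at 0. HBZ was detected in 8 of 44 early and 14 of 39 middle cells.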

How the data were processed

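Cells of rhesus monkey blastocysts were sequenced one by one as 150-bp paired reads after PCR amplification of their cDNA, per the labels' protocols, without molecular identifiers. Tools listed in the submitters' processing notes are TopHat2 2.1.0, HTSeq, DESeq2 and FastQC, without their roles. Neither build nor annotation is given in the sources used here. The authors deposited FPKM values in 1 table of 16049 genes and 161 cells, and every column matched a cell's title. Low FPKM values come in steps, from which the reads of all 13857 genes seen in at least 2 cells were recovered: 100% of their values came out whole, with a tolerance of 2e-06 of the value or 1e-05 and at most 0.05 of a read. The recovered lengths of 9346 of the 9347 genes passing the filter were whole within 0.01 base. They give depth and gene length only. No count model was fitted, since each stage is 1 sample.

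Cells were grouped by the stage label. Genes with a mean FPKM of at least 1 over the 83 cells were kept and log2(FPKM + 1) was averaged per stage. The 15 highest and 15 lowest genes are those with a proper symbol, detection in at least 50% of cells of the higher stage and a median that moves the same way. Up to 4 members with the largest absolute difference of each list and a set of lineage genes were named too. The members, the 43 gene lists, these rules and the title ranges were chosen with earlier results of these data known, and no pattern counts as independent support. For length, the median of 20 bins of genes by length was subtracted. Chromosomes came from RefSeq by symbol or synonym. One list is not reported here. Strand use in counting is not given, so overlapping genes on opposite strands cannot be told apart. The difference and count steps were tested on simulated data. Alternatives changed the pseudocount, filter, scaling, average and cells used. Those on length, depth and X-linked genes were added after seeing the data. Scripts ran on numpy 2.4.6, pandas 2.3.3, matplotlib 3.10.9 and scipy 1.17.1 under Python 3.11.15.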

Additional observations from a re-analysis of the deposited data

How the results depend on the processing

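Across 17 alternatives, the counts of genes past 1 depended on the scale. With a pseudocount of 0.1 they were 1055 higher and 740 lower, with 10 they were 21 and 81, and with every cell rescaled to the same sum 589 and 212, at an all-gene median of 0.22. The count of higher genes was 577 with medians over cells, 521 with early cells numbered 1 to 28, 485 with those numbered 29 to 48 and 620 with middle cells numbered 3 to 29. The count of lower genes was 621 with middle cells numbered 32 to 55. Of the list medians, genome activation was -1.23 on the log2 of the mean FPKM, -0.17 with a pseudocount of 10 and 0 with medians over cells, and water, glucose and ion transport 0.45 with early cells numbered 29 to 48. With middle cells numbered 32 to 55, nucleotide synthesis was 0.21, ribosomal proteins -1.004 and keratins -0.50. With length subtracted, complex I was -0.16, complexes II to V -0.18 and ribosomal proteins -0.17. The cause of the other shifts was not tested.

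Among named genes past 1 or -1, the sign turned for MT1F, CD24 and DHCR7. MT1F was -0.93 on the log2 of the mean FPKM and -0.23 with early cells numbered 1 to 28. With the same cells CD24 was 0.075, and DHCR7 was -0.060 with early cells numbered 29 to 48. With middle cells numbered 32 to 55 the sign turned for DUSP6 (-0.44), KRT7 (-0.24), SLC2A1 (-0.25) and ATP6V1B1 (-0.57). Signs also turned among named genes with smaller differences: over the alternatives SOCS1 reached 0.33, APOE -0.17 and CLDN7 -0.36, among others. With cells thinned to 3.5 M (mega) reads, or only the 32 early and 28 middle cells of 8 to 16 M reads, no sign turned among the genes past 1 that are named. Low genes are limited by 1 library per cell, and every value by unnamed embryos. No paired analysis was possible because the labels do not say that a number shared by the stages marks a shared embryo or day, and no test was made.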

Other observations

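Among the genes at least 1 apart in all 4 pairs of title ranges, several fall outside the lists and were chosen after their values were seen. SLC41A2, a magnesium transporter, had a median of 4.95 in early cells (0.73 to 6.57) and 6.24 in middle cells (5.28 to 7.22), a difference of 1.60 and 1.30 to 1.85 over the pairs. NUCKS1, a chromatin protein of DNA repair, had medians of 3.30 (0.23 to 4.81) and 5.03 (3.47 to 6.35), and the middle cell was higher in 94.5% of cell pairs. EPHA4, an ephrin receptor, differed by 1.52, while EFNA1, an ephrin ligand, differed by -1.19 in the other direction. MCU, the pore of the mitochondrial calcium uniporter, differed by 1.23.

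In the lower direction, PSMB9, a subunit of the immunoproteasome, was detected in 28 of 44 early and 6 of 39 middle cells and differed by -2.31. Its means were 0.43 in late and 0.00 in hatching cells. CXCL12, a chemokine, was detected in 32 of 44 and 15 of 39 cells and differed by -1.50, with a mean of 4.87 in hatching cells. S100P, a calcium-binding protein known from placenta, had medians of 9.13 (5.86 to 10.46) and 7.34 (4.30 to 9.05), a difference of -1.86. OVOL2, an epithelial zinc-finger factor, differed by -1.76 and GADD45B, a stress-response gene, by -1.93. Of the 38 lower genes 17 are of up to 1000 bases and 3 are X-linked, against 2 of up to 1000 bases among the 38 higher genes. Histone genes, added after their values were seen, had a median of -0.33 over 48 genes, or 0.15 against genes of like length, with 7 past -1.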
